A study of Rattus norvegicus with 8 samples.

Results

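Genes of liver glycolysis, fructose metabolism and glycogen turnover were examined in rats fed an extract of persimmon peel. The set holds 8 genes, Gckr, Pklr, Pfkl, Pfkfb1, Khk, Gys2, Pygl and Ppp1r3c. A probe set was taken where the platform annotation gave it 1 of these symbols and no other. This gave 8 probe sets for 7 genes, out of 20826 sets with 1 symbol (14217 gene symbols) and 31042 in all once manufacturer controls were removed. Pklr had 2 probe sets and the other 6 genes had 1 each. Ppp1r3c, a glycogen-targeting subunit of protein phosphatase 1, had no such probe set, so its signal is not analysed here and only its promoter sequence was searched. All 8 probe sets passed the filter on dim signals.

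The livers came from 8 male Goto-Kakizaki (GK) rats, an inbred strain with non-obese type 2 diabetes that both diet groups share. The control group (4 rats) ate AIN-93G, a purified rodent diet, and the persimmon peel group (4 rats) ate AIN-93G containing persimmon peel (PP) extract. Both diets ran for 12 weeks and the rats were 18 weeks old. Whether the rats were fed or fasted when the liver was taken is not given in the sources used here, nor is the dose of extract, and no non-diabetic strain was included. RNA of each liver was hybridised to 1 Affymetrix array, and 1 array was treated as 1 animal.

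The liver takes up glucose when blood glucose is high, holds it as glycogen or breaks it down by glycolysis, and returns glucose to the blood between meals. Glucokinase traps the incoming glucose and its regulatory protein, encoded by Gckr, holds it inactive in the nucleus. Phosphofructokinase and pyruvate kinase are the regulated steps of glycolysis, ketohexokinase lets fructose enter below phosphofructokinase, and glycogen synthase and glycogen phosphorylase build and degrade glycogen in opposition. Much of this regulation acts on the enzymes by phosphorylation and by metabolites, which transcript levels do not show.

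Median signals of the arrays ran from 33.2 to 39.2 units. Of 15521 tested probe sets, limma called 703 lower and 66 higher with persimmon peel at an adjusted p under 0.05, so 91.4% of calls were lower, against 68.8% after quantile normalization (597 lower, 271 higher). The hepatocyte markers Serpina1 and Apob had mean signals of 11673 and 10762. All 7 measured hepatocyte markers (of 8 listed) had negative differences with 0 called, while 48.6% of all tested sets, bright or dim, had a positive difference. That share was not computed for sets as bright as these markers. The summed signal of the 7 markers was 68207 to 72148 in control livers and 62052 to 67783 in persimmon peel livers, without overlap. The diets also did not overlap in 10.4% of the brightest sets of all tested genes, and no such share was computed for sums. The summed markers overlapped between the diets for Kupffer cells and macrophages (3561 to 4429 and 3868 to 5190), sinusoidal endothelium (3327 to 3621 and 2805 to 3693), and stellate cells and fibroblasts (1027 to 1480 and 967 to 1263). They also overlapped for bile duct (224 to 309 and 253 to 261), lymphocytes (266 to 308 and 235 to 338) and red blood cells (3174 to 8589 and 4483 to 6217). In that order 6, 4, 6, 1, 1 and 2 genes of these lists were tested and 0 were called, beside 2.4% of the brightest sets of 9174 genes. So few tested genes could hardly give a call at that share. Clec4f and Lyz2, Lyve1 and Kdr, Col3a1 and Reln, Epcam and Krt19, Ptprc and Nkg7, and Hbb and Alas2 were the brightest of those lists in that order. Of the 5 skeletal muscle and 5 pancreas genes, led by Tnnt3 and Ckm and by Ins1 and Prss1, 0 were bright enough to be tested. Their sums were 21.3 to 48.1 and 32.4 to 62.2 for muscle, and 18.8 to 57.4 and 58.1 to 93.3 for pancreas, the latter without overlap. Ins1 made up most of the change in the pancreas sum, with means of 16.2 in control and 39.7 units in persimmon peel livers. Cpa1 went the other way (8.40 and 5.15). A pancreas difference cannot be read from signals this dim. In such bulk samples fewer cells of a type and less RNA per cell cannot be told apart. The sums are of deposited signals without further normalization, so the scaling of the arrays cannot be separated from either.

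Promoter sequences of the 8 genes were searched for motifs and are printed for the 3 whose signals differed most between the diets, though none of the 3 passed the test. The 250 bases before the RefSeq transcript start (build GRCr8) are given 5′ to 3′ on the gene's strand, for Pklr at chr2:176841014-176841263, for Pfkl at chr20:10663715-10663964 and for Pfkfb1 at chrX:22941926-22942175, all on the plus strand. Capitals mark letters matched by the motifs named after the sequences.
Pklr: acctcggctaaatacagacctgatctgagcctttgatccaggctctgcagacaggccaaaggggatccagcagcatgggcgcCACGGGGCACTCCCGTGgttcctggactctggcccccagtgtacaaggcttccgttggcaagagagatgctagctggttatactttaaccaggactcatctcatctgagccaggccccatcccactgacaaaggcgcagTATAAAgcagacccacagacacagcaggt
Pfkl: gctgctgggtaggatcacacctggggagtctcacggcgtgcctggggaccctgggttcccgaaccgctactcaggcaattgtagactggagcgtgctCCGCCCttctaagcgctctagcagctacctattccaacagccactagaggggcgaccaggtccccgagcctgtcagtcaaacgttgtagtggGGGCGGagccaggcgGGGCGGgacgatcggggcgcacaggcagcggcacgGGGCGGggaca
Pfkfb1: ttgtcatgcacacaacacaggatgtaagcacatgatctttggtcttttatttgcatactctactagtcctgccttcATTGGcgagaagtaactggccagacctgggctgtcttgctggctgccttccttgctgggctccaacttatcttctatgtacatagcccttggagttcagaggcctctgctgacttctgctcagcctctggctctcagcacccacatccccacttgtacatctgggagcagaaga
In all 3 genes the transcript start used lies inside the gene's RefSeq record, 485 bases from the record's start for Pklr, 58 for Pfkl and 6138 for Pfkfb1. The Pklr window is such a case, as Pklr has a red-cell promoter upstream of the liver promoter. Its first capitals, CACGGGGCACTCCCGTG, lie 168 bases before the start and are the carbohydrate response element of the liver promoter, through which glucose acts on the gene by the transcription factors ChREBP (Mlxipl) and Mlx. The search pattern, the inverted carbohydrate response element with any 5 bases in its middle, was written from that known element, so its match is no finding. It matched 1 of 33469 promoter windows, or 0.00299%, on either strand. The pattern of paired perfect E-boxes with the same spacing matched 0 windows. The second capitals in Pklr are a TATAAA at 29 bases before the start, a motif in 12.9% of windows and in 1 of the 8 genes. Pfkl had 4 GC boxes (GGGCGG, either strand), found in 30.5% of windows and also in Khk and Pygl. Pfkfb1 had 1 CCAAT motif, as did Ppp1r3c, against 34% of windows, and the single E-box CACGTG (5.59% of windows) was found in Ppp1r3c only among the 8 genes. A match describes letters in this window and not the binding of a factor.

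None of the 7 measured genes passed the test between the diets. Of the 8 probe sets, 0 were called lower and 0 higher by limma, beside 4.95% of all tested probe sets (4.53% lower, 0.425% higher), and the adjusted p ran from 0.108 to 0.929. At an unadjusted p under 0.05 there were 2 of 8, beside 19.6% of all tested sets (13.4% lower, 6.19% higher). The arrays of the diets overlapped in each of the 8 sets, and they lay apart in 12.9% of all tested sets. With only 8 sets, counts of 0 do not set the members apart from the rest of the array at these shares. With 5 differences positive and 3 negative, the median log2 fold change was 0.09, against -0.01 over all tested sets. The median size of the difference, sign aside, was 0.14 in the members and 0.15 over all tested sets.

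**Figure D1:**
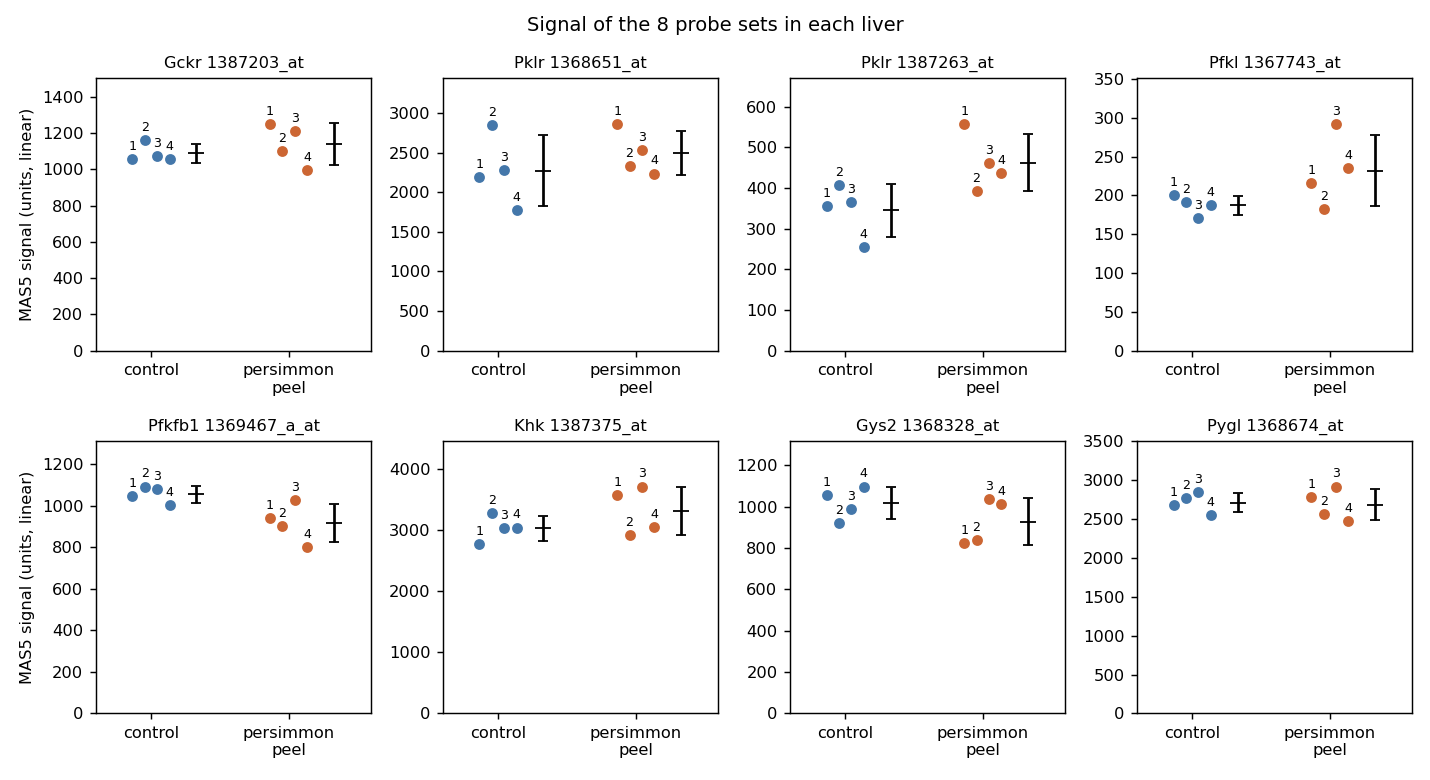
Signal of each probe set in each liver, on linear axes from 0, with the replicate number above each point and the mean ± SD of 4 arrays as a bar at the right of each diet. The diets overlap in all 8 panels, and persimmon peel replicate 1 stands highest for Pklr 1387263_at at 558 units.

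Gckr encodes the glucokinase regulatory protein. Its probe set 1387203_at read 1058, 1163, 1072 and 1055 units on control arrays 1 to 4 and 1251, 1099, 1209 and 993 on persimmon peel arrays 1 to 4. Both the highest and the lowest of the 8 livers were on the persimmon peel diet, and 2 of its 4 arrays exceeded every control array. The means were 1087 ± 51.3 and 1138 ± 116 (SD, n = 4 each). The difference was 0.06 on the log2 scale (SE 0.09, adjusted p = 0.751), with a 95% interval from 0.914-fold to 1.19-fold. Single arrays moved this small value, to 0.01 without persimmon peel replicate 1, 0.03 without replicate 3, 0.12 without replicate 4 and 0.09 without control replicate 2.

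Pklr encodes the pyruvate kinase of liver and red cells, which carries out the last step of glycolysis. In the dimmer of its sets, 1387263_at, the control arrays read 355, 408, 365 and 254 units and the persimmon peel arrays 558, 392, 463 and 436. All 4 persimmon peel arrays lay above the control mean and 3 lay above every control array, while control replicate 4 was the lowest liver. The means were 345 ± 65.1 and 462 ± 70.4 (SD, n = 4 each). The log2 fold change was 0.43 (SE 0.15, unadjusted p = 0.0101, adjusted p = 0.108), or 1.35-fold with a 95% interval from 1.09-fold to 1.67-fold before adjustment for multiple tests. That is the smallest p among the 8 probe sets, and it does not pass. Its lowest adjusted p with another setting was 0.0558, without persimmon peel replicate 2, and without control replicate 4 the log2 difference was 0.29.

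The brighter Pklr set, 1368651_at, read 2189, 2853, 2283 and 1770 units on the control diet and 2863, 2327, 2536 and 2236 on the persimmon peel diet. Control replicate 2 was close to the highest persimmon peel liver, and the diets overlapped over most of their range. The difference was 0.15 (SE 0.12, adjusted p = 0.543), with means of 2274 ± 446 and 2491 ± 278 (SD, n = 4 each). It was 0.03 without control replicate 4, 0.08 without persimmon peel replicate 1 and 0.26 without control replicate 2, with adjusted p of 0.221 or more. Both sets were lowest in control replicate 4 and highest in persimmon peel replicate 1. After each diet's mean was removed, their log2 signals correlated across the 8 arrays with r = 0.923, a description of sets that share a gene and an array.

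The log2 difference of the dimmer minus the brighter Pklr set was -2.62, -2.81, -2.65 and -2.80 on the control arrays and -2.36, -2.57, -2.45 and -2.36 on the persimmon peel arrays. The diets did not overlap in this difference, which was also so in 20.3% of 2295 genes with several tested sets. It shifted by 0.28 (SE 0.13), with an adjusted p of 0.179 over those genes, of which limma called 12.8% (11.8% lower, 1.05% higher). The larger change of the dimmer set was therefore not past the threshold.

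Pfkl encodes the liver subunit of phosphofructokinase, the committing step of glycolysis. Its set 1367743_at read 200, 191, 171 and 187 units on the control diet and 216, 183, 292 and 236 on the persimmon peel diet. The control livers were close together, 3 persimmon peel livers lay above all of them and persimmon peel replicate 2 lay within them. The means were 187 ± 12.3 and 232 ± 45.8 (SD, n = 4 each). The log2 fold change was 0.29 (SE 0.14, unadjusted p = 0.0511, adjusted p = 0.259). Without persimmon peel replicate 3, the array with the highest median signal, the value was 0.17 (adjusted p = 0.468), and after quantile normalization it was 0.31 (adjusted p = 0.109).

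Pfkfb1 encodes the liver form of the bifunctional enzyme that makes and removes fructose 2,6-bisphosphate, the main allosteric activator of phosphofructokinase. Its set 1369467_a_at read 1044, 1092, 1082 and 1003 units on the control diet and 940, 902, 1026 and 802 on the persimmon peel diet. All 4 persimmon peel livers lay below the control mean and 3 lay below every control liver. The means were 1055 ± 40.6 and 917 ± 92.5 (SD, n = 4 each), with a log2 difference of -0.21 (SE 0.09, unadjusted p = 0.0366, adjusted p = 0.214). The 95% interval before adjustment ran from 0.759-fold to 0.99-fold. In the other settings the value lay between -0.31 and -0.14, with adjusted p of 0.0986 or more.

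Khk encodes ketohexokinase, which phosphorylates fructose to fructose 1-phosphate. Set 1387375_at read 2777, 3277, 3040 and 3047 units on the control diet and 3576, 2919, 3718 and 3059 on the persimmon peel diet. Persimmon peel replicates 1 and 3 were above every control liver and replicates 2 and 4 lay within the control range. The means were 3035 ± 204 and 3318 ± 389 (SD, n = 4 each), with a log2 difference of 0.12 (SE 0.09, adjusted p = 0.464). Without persimmon peel arrays 1 and 3 the sign turned, to -0.02 (adjusted p = 0.95), and that of Gckr to -0.06 (adjusted p = 0.845).

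Gys2 encodes liver glycogen synthase, which lengthens the glycogen chain. Set 1368328_at read 1057, 923, 988 and 1098 units on the control diet and 823, 838, 1038 and 1015 on the persimmon peel diet. Persimmon peel replicates 1 and 2 were below every control liver, and replicates 3 and 4 lay inside the control range. The means were 1017 ± 76.9 and 928 ± 114 (SD, n = 4 each). The log2 fold change was -0.14 (SE 0.10, adjusted p = 0.486), with a 95% interval from 0.785-fold to 1.06-fold.

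Pygl encodes liver glycogen phosphorylase, which releases glucose 1-phosphate from glycogen. Set 1368674_at read 2685, 2769, 2842 and 2549 units on the control diet and 2779, 2569, 2917 and 2470 on the persimmon peel diet. The persimmon peel livers spread to both sides of the control livers. The means were 2711 ± 126 and 2684 ± 202 (SD, n = 4 each). The log2 fold change was -0.02 (SE 0.07, adjusted p = 0.929), and the 95% interval ran from 0.885-fold to 1.10-fold.

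**Figure D2:**
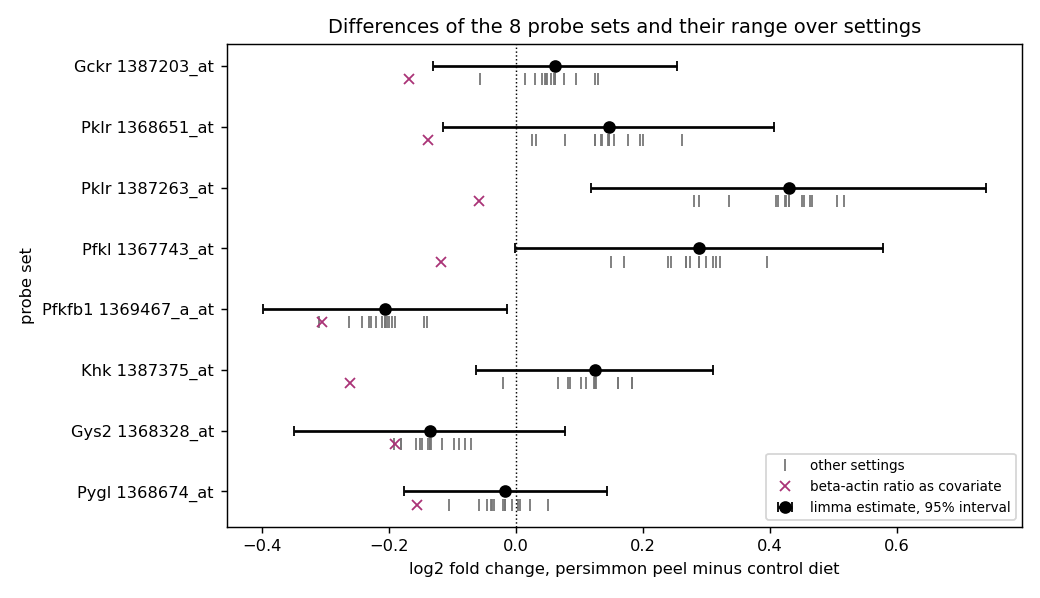
Log2 fold change of each probe set (x axis, persimmon peel minus control diet) with its 95% interval before adjustment, and below it the values in the other settings as ticks, with the fit that holds the beta-actin ratio as a covariate as a cross. The intervals of Pklr 1387263_at (0.43) and Pfkfb1 (-0.21) do not reach 0, and the cross lies on the other side of 0 for both Pklr sets, Pfkl, Khk and Gckr.

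Of 4 control ratios of the array for RNA quality, both of beta-actin had lower means on the persimmon peel diet at an unadjusted p under 0.05, those of GAPDH did not reach it, and 0 passed after adjustment over the 4. For beta-actin, the middle probe set minus the 3′ one, in log2 units, was -0.761, -0.766, -0.746 and -0.783 on the control arrays and -1.18, -0.925, -1.09 and -1.06 on the persimmon peel arrays (p = 0.0286 in a two-sided exact test over all 70 splits, the lowest they can give, and 0.0571 after Benjamini-Hochberg adjustment over the 4 ratios). The 5′ set minus the 3′ set of beta-actin had means of -1.68 and -1.97 (exact p = 0.0286, adjusted 0.0571). For GAPDH the middle minus the 3′ set had means of -0.58 and -0.59 (exact p = 0.857) and the 5′ minus the 3′ set -0.29 and -0.43 (exact p = 0.0857, adjusted 0.114). Persimmon peel replicate 1 had the lowest ratio and also the highest signal of both Pklr sets and of Gckr. With the ratio as a covariate, a fit that separates ratio and diet poorly, the log2 fold changes were -0.06 and -0.14 for the Pklr sets, -0.12 for Pfkl, -0.26 for Khk and -0.17 for Gckr. Each of these turned sign, while Pfkfb1 was -0.31, Gys2 -0.19 and Pygl -0.16. All 8 had an adjusted p of 1.00 in that fit, in which limma called 0 probe sets on the array. The parts of the beta-actin ratio and of the lower hepatocyte marker sum in the members' values were not tested.

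The members differed in how much they varied between livers of 1 diet. The residual SD of the log2 signal was 0.09 for Pygl, lower than in all but 6.81% of tested sets, 0.11 for Pfkfb1 and 0.12 for Gckr. It was 0.23 and 0.26 for the brighter and dimmer Pklr sets, at the 65.4 and 73.9 percentile. The median over the members was 0.14, against 0.19 over all tested sets. Members also lay high in signal, from the 60.0 percentile for Pfkl to the 97.1 percentile for Khk. On the control diet the Pklr sets had coefficients of variation of 19.6% and 18.9%, and those of the other 6 sets ran from 3.85% (Pfkfb1) to 7.56% (Gys2). On the persimmon peel diet the range was 7.53% (Pygl) to 19.7% (Pfkl).

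**Figure D3:**
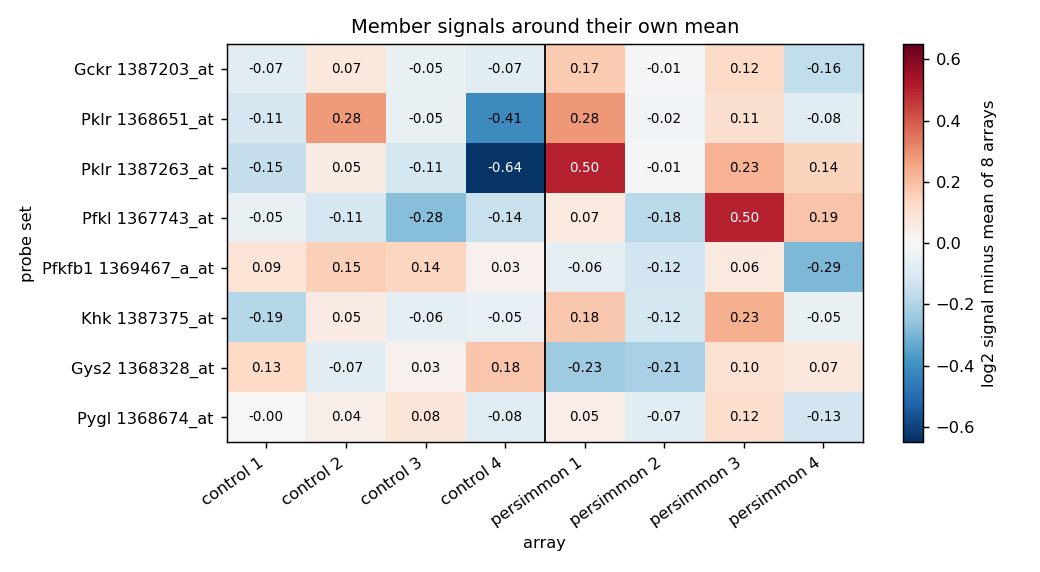
Log2 signal of each probe set minus its mean over the 8 arrays, with red above and blue below that mean and a line between the diets. Control replicate 4 is lowest for both Pklr sets (-0.41 and -0.64), and persimmon peel replicates 1 and 3 hold the highest value of 3 sets each.

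Single livers set much of the members' spread. Persimmon peel replicate 1 was highest for Gckr and both Pklr sets, and replicate 3 for Pfkl, Khk and Pygl. Persimmon peel replicate 4 was lowest for Gckr, Pfkfb1 and Pygl. After the diet means were removed, the log2 signals of Pfkfb1 and Pygl correlated with r = 0.936 and Gckr and Pfkfb1 with r = 0.851. Gckr correlated with both Pygl and Khk at r = 0.797. Gys2 ran with Pfkl at r = 0.70. It ran against the brighter Pklr set at r = -0.62, the dimmer Pklr set at r = -0.47 and Gckr at r = -0.46. These values describe 8 arrays, and each value compares signals of the same RNA and array, so they share its scaling and RNA quality.

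Across 9122 other named genes, those with the pattern closest to a member over the 8 arrays were found by Pearson's r of log2 signals. For Gckr these were Prss8 (0.980), Tmem129 (0.959) and Arrdc1 (0.948), and for the brighter Pklr set Mapk8ip1 (0.938), Samd4b (0.933) and Pmvk (0.931). For Pfkl they were Dync1li2 (0.986), Cherp (0.985) and Sbno2 (0.983), for Pfkfb1 Pgs1 (0.967), Iws1 (0.964) and Lin7a (0.964), and for Khk Dnajb5 (0.986), Prkce (0.975) and Zc3h11a (0.968). Gys2 was closest to Fbxw2 (0.980), Vnn1 (0.970) and the carnitine-acylcarnitine carrier gene Slc25a20 (0.970), and Pygl to Inpp5e (0.965), Pprc1 (0.956) and Sema6a (0.930). None of these 21 was called between the diets by limma (adjusted p of 0.112 or more), beside 2.4% of the brightest sets of 9174 genes. They were chosen for likeness to sets that were not called themselves, so this count is no separate finding. With 8 arrays and so many genes such values are a description only.

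The other enzymes of the same routes gave 0 calls in their brightest probe sets. Of 65 listed genes, 56 had a probe set with 1 symbol, 41 were bright enough to be tested and 0 were called lower or higher by limma, beside 2.4% of the brightest sets of 9174 genes (1.93% lower, 0.469% higher). At that share, 0 calls among 41 genes do not set these genes apart from the others. At an unadjusted p under 0.05 there were 6 of 41 (4 lower, 2 higher), beside 16.3% of those genes. Over the 41 genes the log2 differences had a median of 0.04, and over the 9174 a median of 0.01. The arrays of the diets lay apart for 2 of the 41, Ppp1cb and Pgam1, beside 10.4% of genes.

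For glucose entry, 0 of 3 tested genes passed. Slc2a2, the glucose transporter of hepatocytes, went from 5475 ± 45.3 to 5103 ± 430 units (SD, n = 4 each), a log2 fold change of -0.11 (adjusted p = 0.418). Hk1, a hexokinase of most other cell types, was near the dim limit at 41.5 ± 11.7 and 49.1 ± 9.96 (SD, n = 4 each; adjusted p = 0.564).

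For glycolysis, 0 of 12 passed, with 7 differences negative and 5 positive. Aldoa, an aldolase abundant in muscle, went from 790 ± 68.1 to 984 ± 211 units (log2 fold change 0.30, adjusted p = 0.205). Ldha, a lactate dehydrogenase subunit, went from 7981 ± 238 to 7241 ± 497 (-0.14, adjusted p = 0.217; SD, n = 4 in each case).

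Of 5 tested genes of fructose and polyol metabolism 0 passed. Their brightest sets had differences between 0.04 and 0.25, but 3 of the 9 tested sets of these genes were negative. Tkfc, the triokinase that follows ketohexokinase, went from 2101 ± 212 to 2444 ± 381 units (SD, n = 4 each; log2 fold change 0.21, adjusted p = 0.310). Slc2a5, a fructose transporter, had 0.25 (adjusted p = 0.485). The negative sets, named after their values were seen, belonged to Sord, sorbitol dehydrogenase (-0.19, against 0.09 in its brighter set), and Glyctk, glycerate kinase (-0.31 and -0.10, against 0.05). None of these passed, with adjusted p of 0.238 or more.

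Of 8 genes of glycogen synthesis, 0 passed in the brightest set. Ugp2, which makes UDP-glucose, went from 3968 ± 343 to 3503 ± 345 units (SD, n = 4 each; log2 fold change -0.18, adjusted p = 0.248). Pgm1, the phosphoglucomutase that links glucose 6-phosphate and glucose 1-phosphate, had 0.11 (adjusted p = 0.504) in its brighter set. Of 5 genes of glycogen breakdown, 0 passed. Phkb, a regulatory subunit of phosphorylase kinase, had -0.30 (adjusted p = 0.181), and Gaa, the lysosomal glucosidase that degrades glycogen, had 0.25 (adjusted p = 0.242).

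Among 5 genes of the glycogen phosphatase group, Ppp1cb, a catalytic subunit of protein phosphatase 1, came nearest to the threshold. It read 1406 ± 140 units in control and 1070 ± 172 in persimmon peel livers (SD, n = 4 each). The log2 difference was -0.40 with SE 0.11 (adjusted p = 0.0539). The 4 arrays of each diet lay apart. It passed in 4 other settings, a robust fit (adjusted p = 0.0459), a fit blocked on replicate number (0.0379), array weights (0.0441) and without persimmon peel replicate 2 (0.0119). Without persimmon peel arrays 1 and 3 it was -0.21 (adjusted p = 0.403), and with the beta-actin covariate it turned to 0.10 (adjusted p = 1.00). Ppp1cc, another catalytic subunit, had -0.15 (adjusted p = 0.358). Of the 3 carbohydrate-sensing transcription factors 0 passed. Mlxipl, which encodes ChREBP, went from 393 ± 22.7 to 353 ± 23.3 units (SD, n = 4 each; -0.16, adjusted p = 0.398), and its partner Mlx had -0.07 (adjusted p = 0.717).

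**Figure D4:**
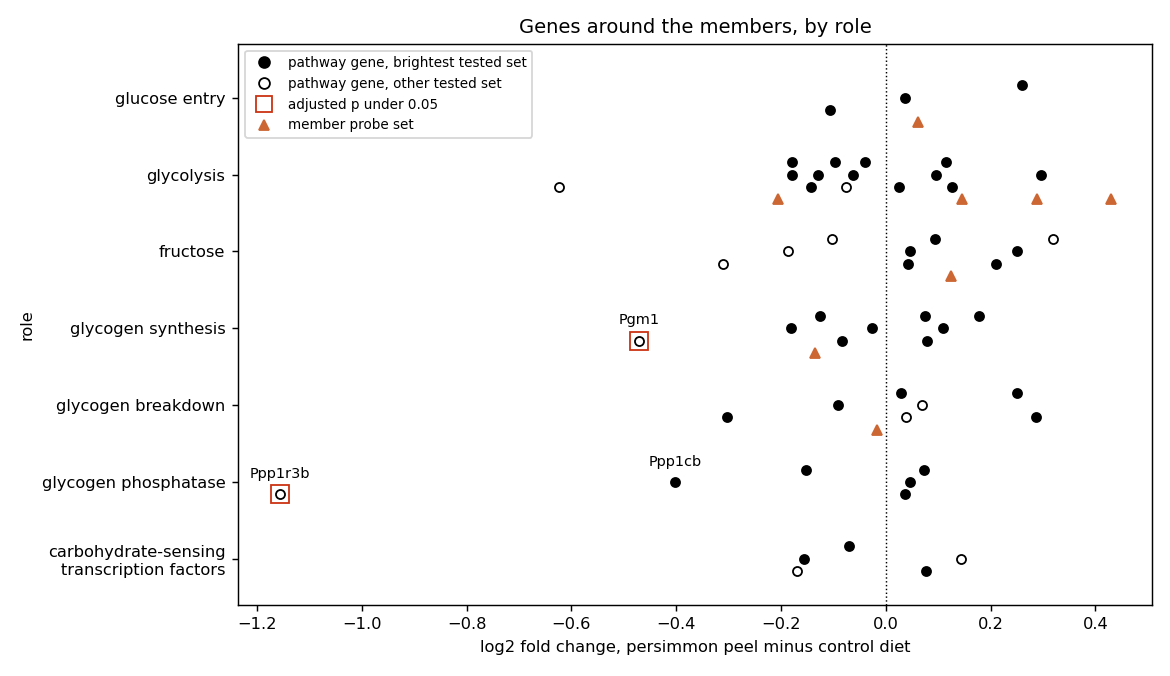
Log2 fold change (x axis, persimmon peel minus control diet) of each tested probe set of the listed genes by role, with the brightest set of a gene filled, other sets open, calls boxed in red and the members as triangles. The boxed sets are the dimmer sets of Ppp1r3b (-1.16) and Pgm1 (-0.47), and no filled point is boxed.

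When every tested set was counted, 2 of 53 were called lower and 0 higher, beside 4.53% and 0.425% of all tested sets. Both belong to genes whose brighter set was not called, and they were singled out after their values were seen. Ppp1r3b encodes the glycogen-targeting phosphatase subunit that is abundant in liver. Its dimmer set 1371161_at went from 110 ± 36.9 to 48.4 ± 12.3 units (SD, n = 4 each). The log2 difference was -1.16 with SE 0.24 (adjusted p = 0.0125), near the lowest mean signal tested, 34.4. Its brighter set 1384262_at went from 1350 ± 303 to 1398 ± 183 (0.07, SE 0.15, adjusted p = 0.83). The call of the dimmer set ended without control replicate 4 (-1.02, adjusted p = 0.0569), without persimmon peel arrays 1 and 3 together (-1.19, adjusted p = 0.0901) and with the beta-actin covariate (-1.03, adjusted p = 1.00).

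The dimmer Pgm1 set 1369473_at read 1033 ± 50.6 and 745 ± 29.2 units (SD, n = 4 each). The log2 difference was -0.47 with SE 0.08 (adjusted p = 0.00523). Its call ended without persimmon peel arrays 1 and 3 together (-0.45, adjusted p = 0.0580) and with the beta-actin covariate (-0.38, adjusted p = 1.00). The brighter Pgm1 set 1388634_at read 1183 ± 88.9 and 1273 ± 66.0. Both genes were called in the difference of the dimmer minus the brighter set, at -0.58 (SE 0.12, adjusted p = 0.019) for Pgm1 and -1.23 (SE 0.21, adjusted p = 0.0121) for Ppp1r3b, beside 11.8% of 2295 genes called lower in that measure. They were singled out because only their dimmer set was called on the same arrays, so this is no separate finding. The Pgm1 call was lost without control replicate 1 (adjusted p = 0.0539), 3 (0.0515) or 4 (0.0608) and without persimmon peel replicate 3 (0.0503), with values of -0.57 to -0.53. The calls of both genes were lost with no filter (0.162 for each), without persimmon peel arrays 1 and 3 together (0.129 for Pgm1, 0.104 for Ppp1r3b) and with the beta-actin covariate (0.976 for each). The position of these sets along their transcripts was not analysed here. A fall of the whole transcript is thus not shown for either gene. Of 11 listed genes with several tested sets, the sets of 5 differed in sign.

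**Figure D5:**
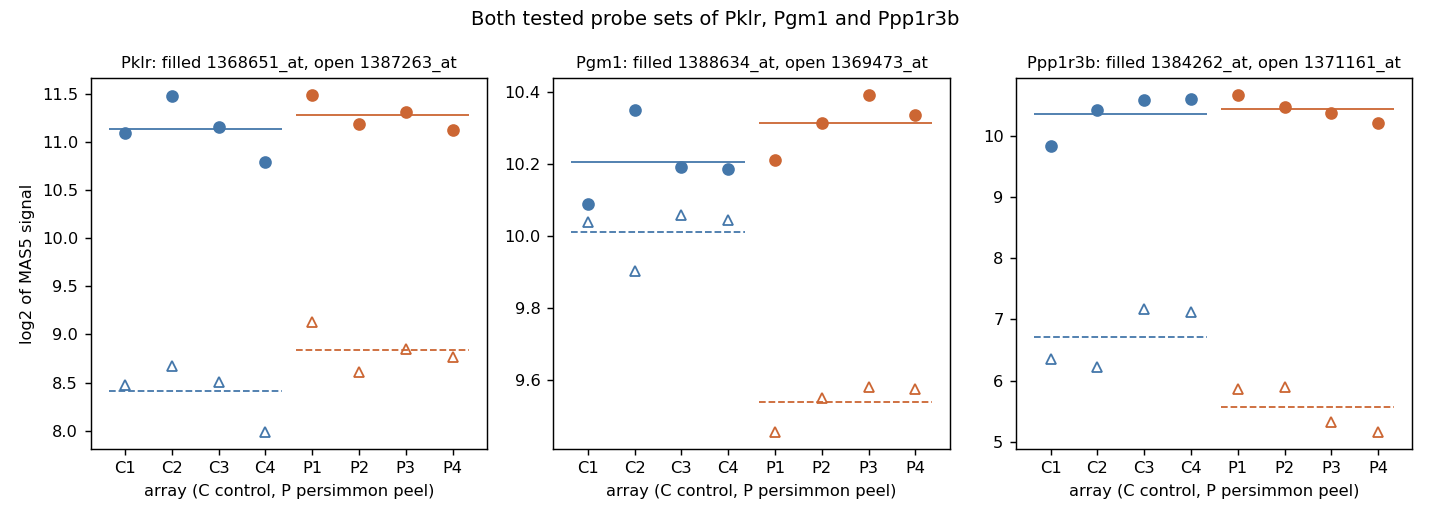
Log2 signal of both tested probe sets of Pklr, Pgm1 and Ppp1r3b in each array (x axis), with circles and solid mean lines for the brighter set and triangles and dashed mean lines for the dimmer set. The dimmer sets of Pgm1 and Ppp1r3b lie lower on the persimmon peel diet while their brighter sets overlap, and the dimmer Pklr set lies higher in 3 of 4 arrays.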

How the data were processed

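Liver RNA of 8 rats was measured on 1-colour Affymetrix arrays, 1 per rat. Each deposited table column holds a linear intensity per probe set (31099 sets). Per the submitters' processing notes the tool was MAS5, the manufacturer's summary algorithm, without version or scaling target, so dim values may carry more error than they show. Arrays have no depth, and their number limits the precision. Per the labels, RNA was extracted with ISOGEN and RNeasy columns.

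Groups came from the labels, and 8 columns were used with 0 left over. Symbols came from the platform annotation, updated by gene number through RefSeq (GRCr8, 20758 of 20826 found). Values were taken as log2 with no pseudocount. The 57 control sets and the dimmer 50% by mean were left out. Diets were compared with limma 3.58.1 in R 4.3.3 (lmFit, eBayes with intensity trend, two-sided, persimmon peel minus control), with Benjamini-Hochberg adjustment over 15521 probe sets and a threshold of 0.05. Every adjusted p is from limma, and intervals are its unadjusted 95% intervals.

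Members, lists and alternatives were chosen with earlier results of these data known. Named were all members, pathway genes called and the 2 with the smallest p in each role, the 3 genes most like each member and the brightest 2 markers of each list. Sord, Glyctk, Pgam1 and the dimmer sets of Ppp1r3b and Pgm1 were named after their values were seen. Other settings tried were a pseudocount of 16, median centring, quantile normalization, other filters (none, the upper 30%), array weights, a robust fit, no trend, the beta-actin ratio, the replicate block, each array left out, persimmon peel arrays 1 and 3 left out together, and other choices of a gene's probe set. On simulated data of this comparison (15521 sets), limma recovered 3 of 50 sets changed 1.25-fold, 22 of 50 changed 1.5-fold, 38 of 50 changed 2-fold and 50 of 50 changed 3-fold. The simulated noise was independent between sets and held no shifts shared by an array, such as those of RNA quality or scaling. Recovery in the real data may therefore differ. Sequences are from RefSeq, and 8 of 8 genes matched.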

Additional observations from a re-analysis of the deposited data

Results flagged for a closer look

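In 102 groups of 4 arrays over 51 probe sets, 7 held an array far from the other 3, with a gap to the nearest above Dixon's 95% critical share of the range. Chance gives this in about 1 in 20 groups. One was a member: Gckr on control replicate 2 read 1163 units against 1055 to 1072 on the other control arrays. On control replicate 2, Eno1 (enolase) read 4023 against 3847 to 3861, Phka1 read 50.4 against 41.3 to 42.6, and the dimmer Pgm1 set read 958 against 1052 to 1067. Mlxip on control replicate 1 read 60.4 against 69.8 to 71.8. Ppp1cc on persimmon peel replicate 3 read 1900 against 1540 to 1601, and Gys1 on persimmon peel replicate 4 read 27.4 against 42.7 to 44.3.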

How the results depend on the processing

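In all 19 other settings 0 of the 8 member sets were called, and Pfkfb1 and Gys2 kept their sign. With the beta-actin ratio as a covariate the signs turned for Gckr (-0.17), Khk (-0.26), Pfkl (-0.12), Pklr 1368651_at (-0.14), Pklr 1387263_at (-0.059) and the brighter Ppp1r3b set (-0.13). That fit separates ratio and diet poorly, and the SEs of these values were 0.19 (Khk) to 0.37 (Ppp1r3b), so the turned signs are uncertain. Without persimmon peel arrays 1 and 3 together the signs turned for Gckr (-0.056), Khk (-0.020) and the brighter Ppp1r3b set (-0.015). Pygl, close to 0, turned under quantile normalization (0.051), without control replicate 3 (0.0064) and without persimmon peel replicates 2 (0.0034) or 4 (0.022), with a range of -0.058 to 0.022 over single arrays left out. The brighter Ppp1r3b set turned without control replicate 1 (-0.10) or persimmon peel replicate 1 (-0.0039), with a range of -0.10 to 0.15. The lower pathway genes numbered 1 with the robust fit, 1 with array weights and 1 with the replicate block, and 2 with every tested set counted. With single arrays left out they numbered 0 to 1.

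Calls over all tested sets were 703 lower and 66 higher. With no filter they were 441 and 26, with the covariate 0 and 0 (543 sets had an unadjusted p under 0.05), and without persimmon peel arrays 1 and 3 together 75 and 1. Higher calls were 271 under quantile normalization, 41 in the upper 30% and 33 with no trend. With single arrays left out lower calls ran from 295 (without control replicate 4) to 942 (without persimmon peel replicate 2) and higher from 12 (without persimmon peel replicate 1) to 267 (without persimmon peel replicate 2). Genes whose dimmest and brightest sets changed differently numbered 270 lower and 24 higher. They were 0 and 0 with no filter, with the covariate and without persimmon peel arrays 1 and 3 together, and 99 and 9 with the replicate block. Higher ones were 43 in the upper 30% and 41 with array weights, and with single arrays left out the ranges were 29 to 469 and 5 to 39. The beta-actin ratio differed by -0.34 to -0.26 with single arrays left out, and its exact p was 0.0571 without any 1 control array. The cause of these changes was not tested.

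The replicate numbers gave no sign of a pairing of the samples (same-number correlations of deviations from -0.08 to 0.05, and 2 of 8 arrays closest to their own number). Such correlations cannot show that the rats or their handling were unpaired. The block moved calls over all sets to 596 lower and 60 higher.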
